A study of Mus musculus with 4 samples.

Results

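Collagens and the other genes of the interstitial matrix were followed in CD24+ mouse liver cells. The group was taken by gene name: every collagen chain, the lysyl oxidases, the TIMP inhibitors and 16 further matrix genes such as Fn1, Dcn, Postn and Mmp14, with at least 10 raw counts in at least 2 libraries. These names matched 70 of the 21878 rows of the count tables, and 52 rows met the count minimum, 29 of them collagens and 23 other genes. Of the 18 rows left out, among them Col2a1, Col11a1, Eln and Timp4, 5 were at 0 in every library, and the highest count in any of them was 17. One of the 52, Col8a2, was too low to be tested, which leaves 51 of the 13428 genes tested.

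The libraries came from C57BL/6 mice, 6 to 8 weeks old per the labels and injected from 8 weeks of age. Cells carrying CD24, a surface protein used to collect liver progenitors, were enriched on magnetic columns, and the labels call them both hepatocytes and progenitors. CCL4 mice (2 libraries) were given carbon tetrachloride, a hepatotoxin that causes liver fibrosis when repeated, at 2 ml/kg in olive oil into the peritoneum 2 times a week for 6 weeks. HACY mice (2 libraries) were injected 3 times a week for 6 weeks with a mixture of 3 kinase inhibitors, Y-27632, A-83-01 and CHIR99021, of which A-83-01 blocks the type I receptors of TGF-beta and CHIR99021 blocks glycogen synthase kinase 3. It cannot be read from the labels whether HACY mice also had carbon tetrachloride, and no untreated or vehicle group was analysed here, so each change is HACY relative to CCL4. Nor is it given whether the 2 replicates of a group are different mice, and p-values thus reflect a spread between libraries that may be technical.

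Fibrillar collagens give the interstitial matrix its tensile strength. They are secreted as procollagens, trimmed, assembled on a scaffold of fibronectin and small proteoglycans, and crosslinked by lysyl oxidases. In a scarring liver most of this matrix is laid down by activated hepatic stellate cells and portal fibroblasts, while sinusoidal endothelium adds basement membrane collagen. TGF-beta is a strong inducer of collagen genes, and metalloproteinases and their TIMP inhibitors set how fast the matrix is removed.

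The 4 libraries held 18467299 to 19314219 counts. Hepatocyte, progenitor and non-parenchymal transcripts were all present. Cd24a, the gene of the sorted protein, had a TMM-scaled CPM (a count relative to library size) of 21.9 and 19.4 in HACY replicates 1 and 2, and 20.7 and 38.0 in CCL4 replicates 1 and 2. The HACY difference in Cd24a did not pass the test (log2 fold change -0.51, SE 0.29, edgeR adjusted p = 0.279). Among progenitor and bile duct markers Epcam lay between 2.63 and 6.06 CPM and Krt19 between 7.33 and 20.9 CPM. Across all genes tested, 1576 differed between the groups, 1100 higher and 476 lower in HACY. Scaling by library size alone turned this split into 856 higher and 1355 lower, with the median log2 fold change of all genes at -0.18 instead of -0.01.

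Matrix genes made up a small part of each library, and 1 library held far less of them than the other three. The 52 genes took 0.815% of all counts in HACY replicate 1 (95% exact binomial interval 0.811 to 0.819%) and 0.869% in HACY replicate 2 (0.865 to 0.873%). They took 0.463% in CCL4 replicate 1 (0.460 to 0.466%) and 0.833% in CCL4 replicate 2 (0.829 to 0.837%). By share of counts CCL4 replicate 2 thus lay between the HACY libraries, and CCL4 replicate 1 lay apart. As a share of summed deposited FPKM, CCL4 replicate 2 (0.265%) was just below both HACY libraries (0.282% and 0.266%). CCL4 replicate 1 again lay apart, at 0.152%. The group shares were 0.842 ± 0.0386% (SD, n = 2) in HACY and 0.648 ± 0.261% (SD, n = 2) in CCL4, a difference smaller than the SD of the CCL4 pair. The collagens alone took 0.198% and 0.158% in the HACY libraries, 0.0868% in CCL4 replicate 1 and 0.180% in CCL4 replicate 2. Fn1, which encodes fibronectin, supplied 38.3 to 54.2% of the matrix counts of a library. Per transcript length it was also the most abundant of these genes, at a mean deposited FPKM of 204 over the 4 libraries, followed by Mmp14 at 101, Sparc at 101, Bgn at 60.6 and Timp1 at 45.5.

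**Figure D1:**
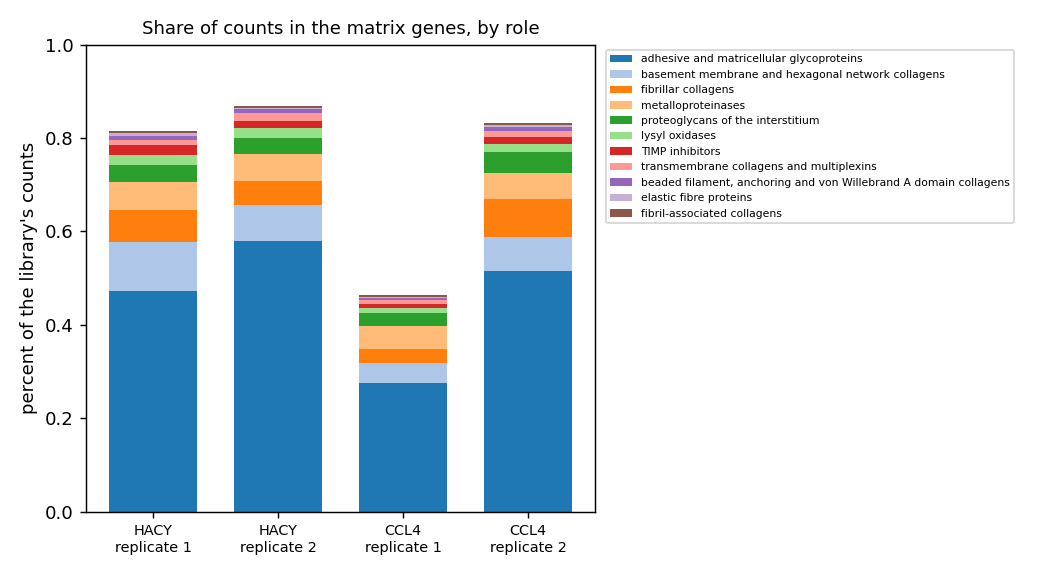
Share of each library's counts (percent, vertical axis) in the 52 matrix genes, 1 bar per library, stacked by role. The bars reach 0.815% and 0.869% in HACY and 0.833% in CCL4 replicate 2, against 0.463% in CCL4 replicate 1, and the adhesive and matricellular glycoproteins fill most of each bar.

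The 2 CCL4 libraries differed from each other in matrix genes more than in genes at large. The median matrix gene was 1.89-fold higher in CCL4 replicate 2 than in replicate 1 (log2 ratio 0.92, from -0.72 to 2.24), whereas the median of all genes tested was 0.0044 on the log2 scale. Of the 51 genes, 45 were higher in replicate 2, beside 50.5% of all genes, and 6 were lower. A difference of more than 2-fold was found for 24 of them (47.1%) in the direction of replicate 2, beside 5.17% of all genes tested, and for 0 in the other direction, beside 1.09%. The 95% counting interval of the ratio lay above 1 for 41 genes, beside 30.4% of all genes, and below 1 for 3, beside 29.8%. Between the HACY libraries the median matrix gene stood at -0.15 (replicate 2 over replicate 1). There, 18 genes were higher in replicate 2, beside 49.9% of all genes, with 0 genes more than 2-fold higher (1.36% of all genes) and 2 more than 2-fold lower (1.15% of all genes). In this pair the counting interval lay above 1 for 8 genes, beside 21% of all genes, and below 1 for 25, beside 20.1%, so the HACY libraries differed beyond counting error as well. These are comparisons of single libraries, with no test of the conditions.

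**Figure D2:**
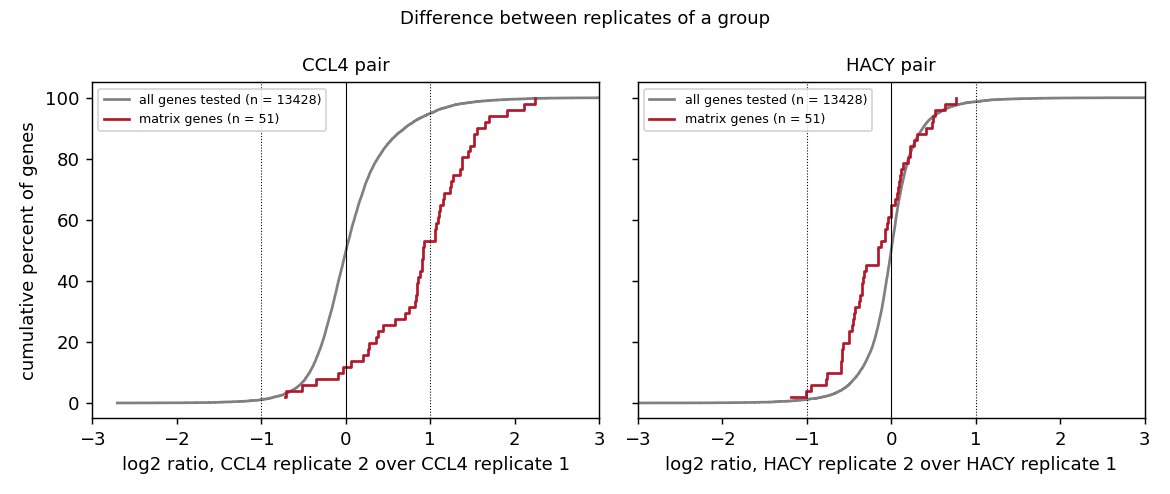
Cumulative percent of genes (vertical axis) against the log2 ratio of replicate 2 over replicate 1 (horizontal axis), for the CCL4 pair on the left and the HACY pair on the right. The red line shows the 51 matrix genes, the grey line all 13428 genes tested (the most extreme of which lie outside the axis), and dotted lines mark a 2-fold difference. In the CCL4 pair the matrix genes are displaced to a median of 0.92, while in the HACY pair their median is -0.15.

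CCL4 replicate 1 was the lowest of the 4 libraries for 41 of the 51 genes, a position it held for 31.8% of all genes tested. Its level lay below both HACY libraries for 44 genes, beside 43.9% of all genes, and above both for 3, beside 42.4%. CCL4 replicate 2 was below both HACY libraries for 25 genes, beside 41.3% of all genes, between them for 10 and above both for 16, beside 42.1%. Replicate 1 was thus on the low side of HACY for most of the group. Replicate 2 lay on both sides of HACY, more often below (49.0%) than above (31.4%), where genes at large split nearly evenly.

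Against this spread, 7 of the 51 matrix genes (13.7%) rose in HACY with all 4 libraries at an edgeR adjusted p below 0.05, beside 8.19% of all genes tested, and 0 fell, beside 3.54%. They were Tnc, Tgfbi, Postn, Timp3, Col14a1, Loxl4 and Col27a1. At an unadjusted p below 0.05, 18 were higher and 2 lower, beside 16.6% and 13.6% of all genes. DESeq2 called 10 higher and 1 lower, beside 10.1% and 5.44%. The levels of both HACY libraries exceeded both CCL4 libraries for 25 genes (30.7% of all genes tested did so), and fell short of both for 2, Col11a2 and Col20a1 (30.1% of all genes). The other 24 overlapped. The median log2 fold change of the group was 0.44, with 43 genes positive and 8 negative, against -0.0093 for all genes. By library size alone that median was 0.28, with 36 positive and 15 negative, and that of all genes -0.18. On log2(FPKM + 0.1) the medians were 0.47 and -0.11. In bulk RNA, fewer cells of a type and less RNA per cell cannot be told apart, here or in any comparison that follows.

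**Figure D3:**
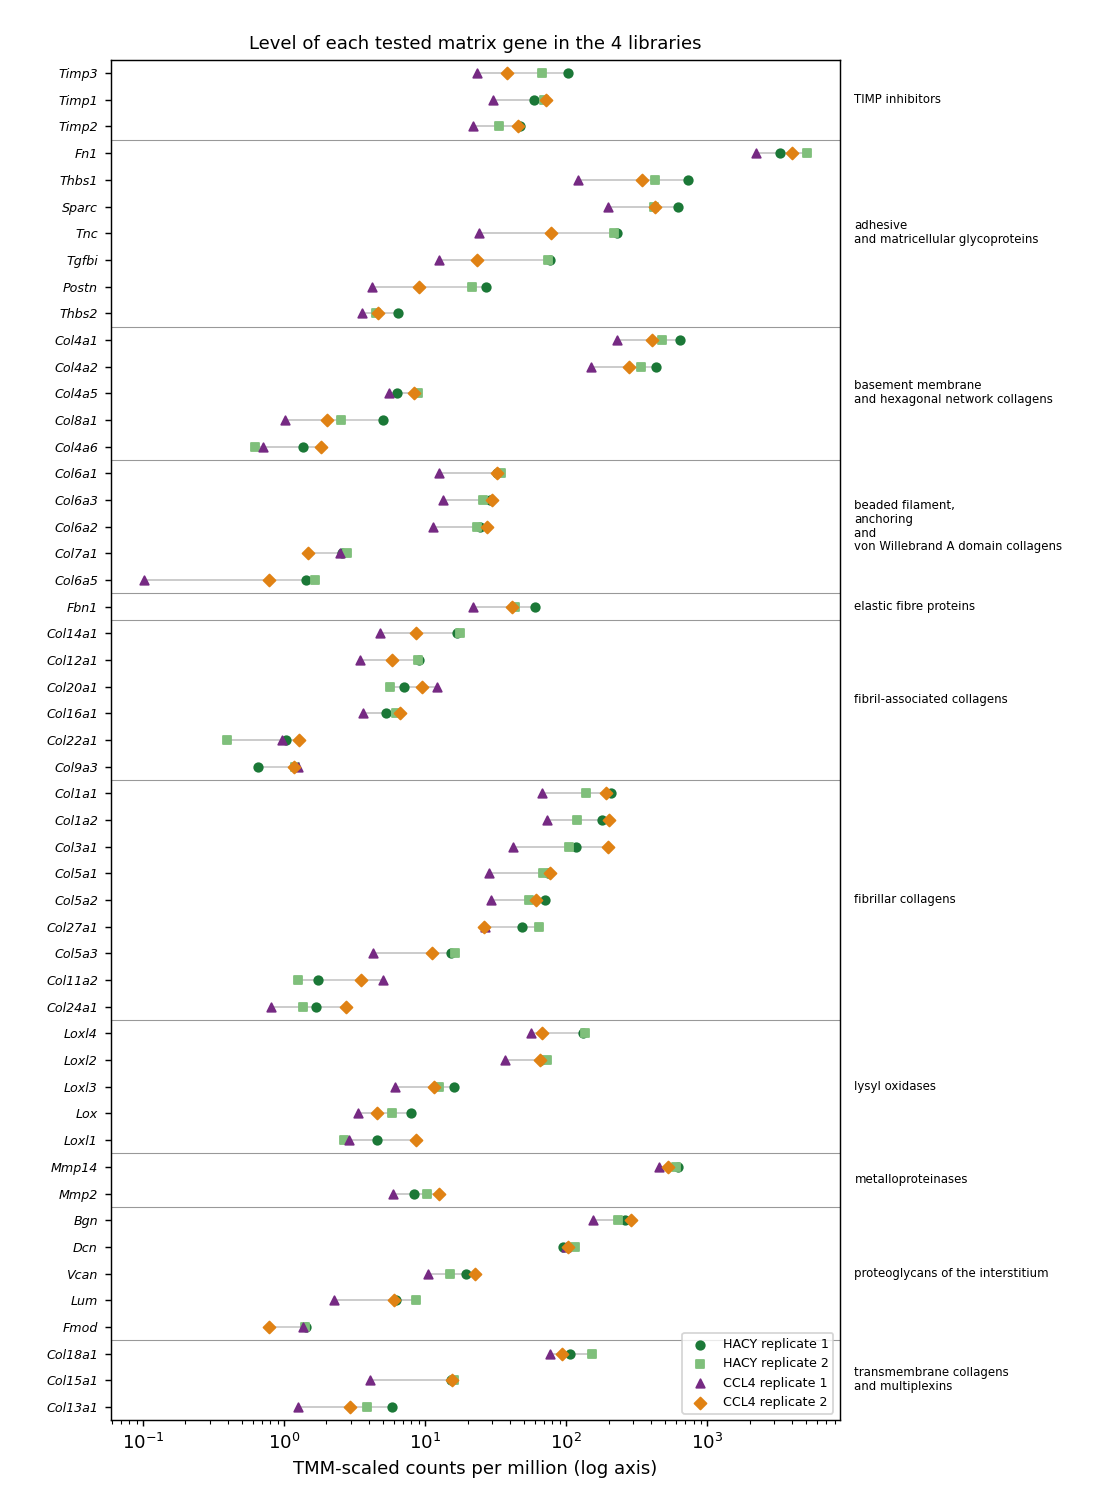
Level of each of the 51 tested matrix genes in TMM-scaled CPM (log axis), grouped by role, with 1 symbol per library: green for HACY replicates 1 and 2, a purple triangle for CCL4 replicate 1 and an orange diamond for CCL4 replicate 2. The purple triangle is the leftmost symbol for 41 genes, while the orange diamond lies among or beyond the green symbols for 26.

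How many matrix genes passed depended on which CCL4 library was in the fit. With CCL4 replicate 2 left out, 31 of 52 genes (59.6%) were higher in HACY, beside 13.4% of all genes, and 2 were lower, beside 8.81%. Their median log2 fold change was then 1.07. With CCL4 replicate 1 left out, 7 of 52 (13.5%) were higher, beside 6.47% of all genes, and 1, Col3a1, was lower, beside 4.02%, with a median of 0.16. Of the genes called without CCL4 replicate 2, 26 had not been called with all libraries, while 8 were called against each CCL4 library alone. Those 8 were the 7 genes named above and Col3a1, whose direction was opposite in the 2 fits. Leaving out HACY replicate 1 gave 6 higher and 0 lower calls, beside 3.85% and 0.719% of all genes, and leaving out HACY replicate 2 gave 4 and 0, beside 4.86% and 0.782%. A fit with 1 library in a group assumes that the lone library varies like the other group.

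**Figure D4:**
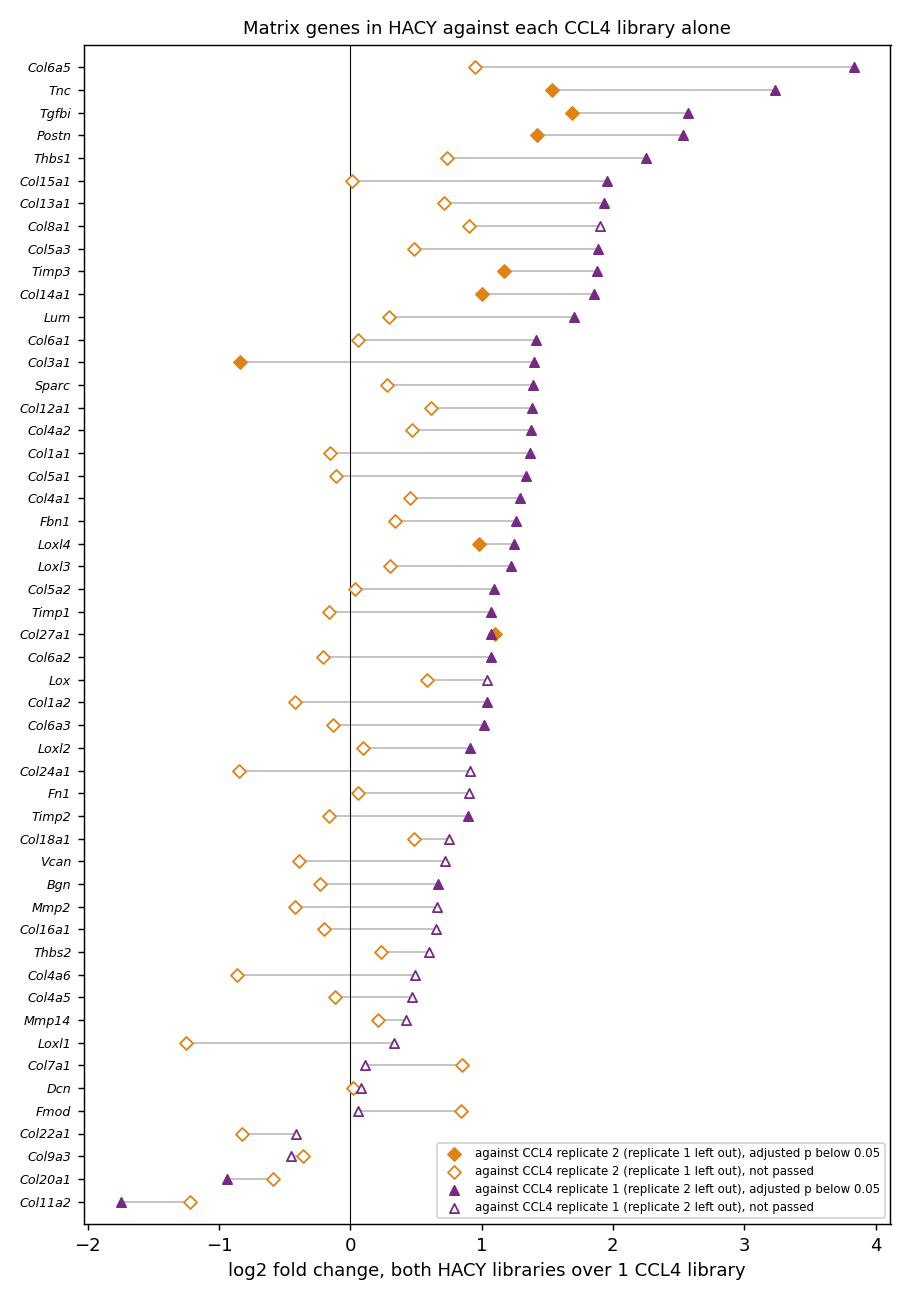
Log2 fold change of each tested matrix gene (horizontal axis) for both HACY libraries over CCL4 replicate 2 alone (orange diamonds) and over CCL4 replicate 1 alone (purple triangles). Filled symbols have an edgeR adjusted p below 0.05, and the grey line joins the values of 1 gene. The medians of these fits over 52 genes, with Col8a2 included though not drawn, were 1.07 (purple) and 0.16 (orange). For Col3a1 the symbols lie on opposite sides of 0.

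Calls by role, here and below, stand beside 8.19% of all genes tested higher and 3.54% lower. With so few genes per role, they are not read as results about a role. Among the fibrillar collagens, the chains that build the large fibrils of scar tissue, 1 of 9 rose and none fell. The median log2 fold change over the 9 was 0.41. The chain that rose was Col27a1, while the major chains Col1a1, Col1a2 and Col3a1 overlapped between the groups and differed several-fold within CCL4. Col1a1, the alpha 1 chain of type I collagen (chromosome 11, 94936224 to 94953042, GRCm38), had 209 and 138 CPM in HACY replicates 1 and 2, and 67.2 and 193 CPM in CCL4 replicates 1 and 2. CCL4 replicate 2 fell between the HACY libraries, and the difference did not pass (log2 fold change 0.41, SE 0.44, adjusted p = 0.578). It was -0.16 without CCL4 replicate 1 and 1.37 without CCL4 replicate 2 (adjusted p = 0.0142). The partner chain Col1a2 (chromosome 6, 4504814 to 4541544) had 180 and 120 CPM in HACY and 72.6 and 201 CPM in CCL4. Here the CCL4 libraries lay on either side of HACY. Its log2 fold change was 0.13 (SE 0.43, adjusted p = 0.875), with -0.42 without CCL4 replicate 1, 1.04 without CCL4 replicate 2 (adjusted p = 0.0273), -0.20 without HACY replicate 1 and -0.031 by library size alone.

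Col3a1, the chain of type III collagen that is laid down early in scarring (chromosome 1, 45311538 to 45349706), had the widest gap within CCL4 of those that averaged 5 CPM or more. It stood at 117 and 105 CPM in HACY, at 42.1 CPM in CCL4 replicate 1 and at 199 CPM in CCL4 replicate 2. The CCL4 libraries thus differed 4.73-fold (95% counting interval 4.39 to 5.10), with both HACY libraries between them. With all libraries the log2 fold change was -0.12 (SE 0.58, adjusted p = 0.918). It was -0.84 against CCL4 replicate 2 alone (adjusted p = 0.0134) and 1.40 against CCL4 replicate 1 alone (adjusted p = 0.00391), so that each single-library fit called it, in opposite directions. Relative to Col1a1, the FPKM ratio of Col3a1 was 0.607 and 0.833 in HACY, 0.666 in CCL4 replicate 1 and 1.08 in CCL4 replicate 2. Per transcript length, Col3a1 thus exceeded Col1a1 in CCL4 replicate 2 and in no other library, and it was below Col1a2 in all 4. The FPKM ratio of Col1a1 to Col1a2, chains of the same trimer, lay between 0.667 and 0.824 in all 4 libraries. The 100 bases upstream of the Col3a1 start site are shown because this gene separates the CCL4 libraries most. The capitals mark the SMAD box (CAGACA or its reverse complement), a short motif bound by the SMAD proteins through which TGF-beta acts.
Col3a1, GRCm38.p6, chr1:45311438-45311537, plus strand: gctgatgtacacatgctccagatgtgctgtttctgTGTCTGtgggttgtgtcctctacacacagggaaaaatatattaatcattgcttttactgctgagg

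Type V collagen starts fibrils and limits their width, and its chains Col5a1 and Col5a3 were lowest in CCL4 replicate 1. Col5a1 had 74.7 and 68.6 CPM in HACY and 28.3 and 77.4 CPM in CCL4 (log2 fold change 0.44, SE 0.40, adjusted p = 0.506). It was -0.11 without CCL4 replicate 1 and 1.34 without CCL4 replicate 2 (adjusted p = 0.00458). Col5a3 had 15.2 and 16.3 CPM in HACY and 4.25 and 11.2 CPM in CCL4. Both HACY libraries were above both CCL4 libraries, yet the difference did not pass (log2 fold change 1.02, SE 0.42, adjusted p = 0.154) except without CCL4 replicate 2, where it was 1.89 (adjusted p = 0.00668). Without CCL4 replicate 1 it was 0.49 (adjusted p = 0.183).

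Col27a1, a fibrillar chain best known from cartilage (chromosome 4, 63214004 to 63334991), behaved otherwise. Its level was 48.3 and 64.2 CPM in HACY and 26.8 and 26.3 CPM in CCL4. The 2 CCL4 libraries were alike, with a ratio of 0.982 (95% counting interval 0.869 to 1.11), and both lay below HACY. Col27a1 rose 2.12-fold (log2 fold change 1.09, SE 0.18, adjusted p = 0.0123), with 1.10 and 1.07 against each CCL4 library alone. It did not pass with HACY replicate 2 left out (log2 fold change 0.87, adjusted p = 0.0767) and in the limma fits of FPKM, where the highest adjusted p was 0.0518. Its upstream 100 bases are given because it was the single fibrillar chain to pass, with a GC box (GGGCGG, bound by Sp1-type factors) in capitals.
Col27a1, GRCm38.p6, chr4:63215312-63215411, plus strand: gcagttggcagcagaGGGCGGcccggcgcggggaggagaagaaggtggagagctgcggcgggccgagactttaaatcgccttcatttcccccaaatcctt

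One fibrillar chain pointed the other way. Col11a2, a chain of the thin fibrils of cartilage, had 1.75 and 1.25 CPM in HACY and 5.06 and 3.50 CPM in CCL4. Both CCL4 libraries were higher, and CCL4 replicate 1 was the highest, unlike most of the group. The log2 fold change of -1.51 (SE 0.40) had an adjusted p of 0.0544. It was called in 6 of the 13 fits that gave it a value, among them DESeq2 and the fit without CCL4 replicate 2 (-1.75, adjusted p = 0.0243). Of the remaining fibrillar chains, Col5a2 lay between 29.3 and 70.5 CPM and Col24a1 between 0.809 and 2.76 CPM, both with overlapping groups.

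The basement membrane collagens Col4a1 and Col4a2, which form the sheet-like network under endothelium and epithelium, were the most abundant collagens per transcript length, at a mean FPKM of 34.5 and 29.5. Neither passed the test with all libraries, and of the 5 network-forming chains tested 0 rose and 0 fell. Col4a1 (chromosome 8, 11198423 to 11312826) had 645 and 475 CPM in HACY and 228 and 409 CPM in CCL4. Col4a2 (chromosome 8, 11312805 to 11449287) had 433 and 341 CPM in HACY and 149 and 279 CPM in CCL4. In both genes the HACY libraries lay above the CCL4 libraries. The log2 fold changes were 0.81 (SE 0.27, adjusted p = 0.101) and 0.85 (SE 0.28, adjusted p = 0.0943). Against CCL4 replicate 1 alone they were 1.29 (adjusted p = 0.00983) and 1.38 (adjusted p = 0.00619), and DESeq2 called both. Against CCL4 replicate 2 alone they were 0.46 and 0.47 (adjusted p = 0.194 and 0.132). The chains kept close proportions, with an FPKM ratio of Col4a1 to Col4a2 between 1.12 and 1.20 in the 4 libraries. These genes are transcribed in opposite directions from start sites so close that the annotated first exons overlap. The 22 bases from one start site to the other are printed because the 2 genes share this region. Whether it bears on the proportions of the chains was not tested. A GC box within the printed stretch (GGGCGG) is in capitals.
Col4a1 and Col4a2, GRCm38.p6, chr8:11312805-11312826, plus strand: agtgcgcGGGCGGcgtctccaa
The other network chains were scarce. Col4a5 lay between 5.51 and 8.97 CPM, Col8a1 between 1.01 and 5.02 CPM and Col4a6 between 0.624 and 1.82 CPM.

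Type VI collagen forms beaded filaments around cells, and its chains Col6a1, Col6a2 and Col6a3 were lowest in CCL4 replicate 1. Of the 5 genes in this role 0 rose and 0 fell. Col6a1 had 32.6 and 34.7 CPM in HACY and 12.6 and 32.3 CPM in CCL4 (log2 fold change 0.58, SE 0.39, adjusted p = 0.358). Col6a2 had 24.5 and 23.3 CPM in HACY and 11.4 and 27.7 CPM in CCL4 (log2 fold change 0.29, SE 0.37, adjusted p = 0.649). In both, CCL4 replicate 1 alone was low, and CCL4 replicate 2 was near the HACY libraries. Without CCL4 replicate 1 the log2 fold changes were 0.058 and -0.21, and without CCL4 replicate 2 they were 1.41 (adjusted p = 0.00605) and 1.07 (adjusted p = 0.0133). Col6a3 ran from 13.5 to 30.0 CPM, Col7a1, the chain of anchoring fibrils, from 1.48 to 2.78 CPM and Col6a5 from 0.101 to 1.65 CPM.

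Fibril-associated collagens sit on the surface of collagen fibrils, and 1 of 6 rose. Col14a1 (chromosome 15, 55307750 to 55520803), which binds fibrils and regulates their growth, had 16.8 and 17.6 CPM in HACY and 4.75 and 8.58 CPM in CCL4. The HACY libraries agreed closely and stood above both CCL4 libraries. Col14a1 rose 2.58-fold (log2 fold change 1.37, SE 0.31, adjusted p = 0.0322), and by 1.01 and 1.85 against each CCL4 library alone. It did not pass with either HACY library left out (adjusted p = 0.0750 without replicate 1 and 0.0875 without replicate 2) or in the FPKM fits (adjusted p = 0.0612 and 0.0736), in which its log2 fold change was 0.64 with a pseudocount of 1. Col20a1 had 7.10 and 5.62 CPM in HACY and 12.2 and 9.56 CPM in CCL4. Its groups did not overlap, but the log2 fold change of -0.77 (SE 0.27) did not pass (adjusted p = 0.106) except without CCL4 replicate 2 (-0.94, adjusted p = 0.0493). Col12a1 lay between 3.44 and 9.01 CPM, Col16a1 between 3.64 and 6.61 CPM, and Col9a3 and Col22a1 below 1.3 CPM throughout.

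The multiplexins Col15a1 and Col18a1 belong to basement membrane zones of vessels, and Col18a1 is the source of the fragment endostatin. Col18a1 had 107 and 153 CPM in HACY and 76.9 and 92.7 CPM in CCL4. The groups did not overlap, and the log2 fold change was 0.61 (SE 0.19, adjusted p = 0.0844). It passed without HACY replicate 1 (0.84, adjusted p = 0.0408) and by DESeq2. Col15a1 had 15.2 and 16.1 CPM in HACY, 4.05 CPM in CCL4 replicate 1 and 15.5 CPM in CCL4 replicate 2. CCL4 replicate 2 lay between the HACY libraries, and CCL4 replicate 1 was 3.84-fold lower than replicate 2 (95% counting interval of that ratio 2.99 to 4.97). The log2 fold change of 0.68 (SE 0.53, adjusted p = 0.434) was 0.015 without CCL4 replicate 1 and 1.95 without CCL4 replicate 2 (adjusted p = 0.00626). Col13a1, a transmembrane collagen, lay between 1.26 and 5.84 CPM.

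Lysyl oxidases oxidise lysines of collagen and elastin so that fibrils become crosslinked, and 1 of 5 rose. Loxl4 (chromosome 19, 42593982 to 42612813) had 132 and 136 CPM in HACY and 56.4 and 67.8 CPM in CCL4. Replicates lay close together in both groups, and the groups were far apart. Loxl4 rose 2.15-fold (log2 fold change 1.11, SE 0.14, adjusted p = 0.00446), by 0.98 and 1.24 against each CCL4 library alone, and passed in all 15 fits. Loxl2, which also acts on the type IV network, had 66.6 and 73.1 CPM in HACY and 37.0 and 65.4 CPM in CCL4. Its HACY libraries were higher, with CCL4 replicate 2 just below them (log2 fold change 0.45, SE 0.25, adjusted p = 0.282). Without CCL4 replicate 2 it was called (0.92, adjusted p = 0.00938), against 0.097 without CCL4 replicate 1 (adjusted p = 0.654). Loxl3 lay between 6.12 and 16.1 CPM, Lox between 3.34 and 7.92 CPM and Loxl1 between 2.67 and 8.68 CPM.

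Small proteoglycans coat fibrils and bind growth factors, and of 5 proteoglycan genes 0 rose and 0 fell. Dcn, encoding decorin, varied little, with 95.5 and 115 CPM in HACY and 99.4 and 104 CPM in CCL4. All 4 libraries were close, and the CCL4 ratio was 1.04 (95% counting interval 0.981 to 1.11). The log2 fold change was 0.052 (SE 0.14, adjusted p = 0.838), and its sign turned by upper-quartile scaling, by library size alone, on FPKM and without HACY replicate 2. Bgn, encoding biglycan, had 260 and 233 CPM in HACY and 155 and 290 CPM in CCL4. CCL4 replicate 2 was the highest library and CCL4 replicate 1 the lowest. Its log2 fold change was 0.15 (SE 0.26, adjusted p = 0.756), -0.019 by library size alone, -0.23 without CCL4 replicate 1 and 0.67 without CCL4 replicate 2 (adjusted p = 0.0168). Lum, encoding lumican, had 6.17 and 8.68 CPM in HACY and 2.28 and 6.06 CPM in CCL4. The difference (log2 fold change 0.83, SE 0.47, adjusted p = 0.278) was called without CCL4 replicate 2 (1.70, adjusted p = 0.0237) and was 0.29 without CCL4 replicate 1 (adjusted p = 0.574). Vcan lay between 10.5 and 22.6 CPM and Fmod between 0.789 and 1.42 CPM. Fbn1, encoding the microfibril protein fibrillin-1, had 60.2 and 43.7 CPM in HACY and 21.7 and 41.2 CPM in CCL4 (log2 fold change 0.73, SE 0.31, adjusted p = 0.165). Without CCL4 replicate 2 it was called as well (1.26, adjusted p = 0.0141), against 0.34 without CCL4 replicate 1 (adjusted p = 0.338).

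The glycoproteins that modulate cell adhesion held the largest rises, with 3 of 7 passing, beside 8.19% of all genes higher. Tnc encodes tenascin-C, a protein of healing tissue that is scarce in healthy adult liver (chromosome 4, 63959785 to 64047015). It had 231 and 220 CPM in HACY, 24.0 CPM in CCL4 replicate 1 and 77.7 CPM in CCL4 replicate 2. Both CCL4 libraries were far below HACY, although they differed 3.24-fold from each other (95% counting interval 2.92 to 3.60). Tnc rose 4.42-fold (log2 fold change 2.15, SE 0.46, adjusted p = 0.0300), by 1.53 against CCL4 replicate 2 alone (adjusted p = 0.00402) and 3.23 against CCL4 replicate 1 alone (adjusted p = 8.66e-04). With 1 HACY library left out, the spread came from the CCL4 pair and the call was lost (adjusted p = 0.555 without replicate 1 and 0.495 without replicate 2). It was lost too with no filter (0.197) and on log2(FPKM + 0.1) (0.0503).

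Tgfbi, named for its induction by TGF-beta, encodes a secreted adhesion protein (chromosome 13, 56609523 to 56639562). It stood at 76.4 and 74.0 CPM in HACY and at 12.6 and 23.4 CPM in CCL4. The HACY libraries were nearly equal, and both CCL4 libraries were far below them. Tgfbi rose 4.17-fold (log2 fold change 2.06, SE 0.27, adjusted p = 0.00536), by 1.69 and 2.57 against each CCL4 library alone. Postn encodes periostin, a matricellular protein of activated fibroblasts (chromosome 3, 54361109 to 54391037). It had 27.0 and 21.6 CPM in HACY and 4.20 and 9.07 CPM in CCL4. Here too the lower HACY library was above the higher CCL4 library. Postn rose 3.65-fold (log2 fold change 1.87, SE 0.36, adjusted p = 0.0196), by 1.42 and 2.53 against each CCL4 library alone. Tgfbi, Postn and Loxl4 were the 3 matrix genes that passed in all 15 fits. Relative to Col1a1, the FPKM ratio of Postn was 0.151 and 0.164 in HACY and 0.0697 and 0.0511 in CCL4, and that of Tgfbi was 0.714 and 1.03 in HACY and 0.356 and 0.228 in CCL4. Both ratios were thus higher in each HACY library than in each CCL4 library, although Col1a1 itself overlapped. The upstream sequences of Tnc and Postn are shown as those of the matricellular genes with large rises whose printed stretch holds no annotated exon. The TATA box (TATAAA) of Postn is in capitals, and the printed Tnc stretch held none of the searched motifs. RefSeq gives each of these genes another start site, whose stretch is not printed. That of Postn held none of the motifs, and that of Tnc held a SMAD box and overlaps an exon of Tnc.
Postn, GRCm38.p6, chr3:54361007-54361106, plus strand: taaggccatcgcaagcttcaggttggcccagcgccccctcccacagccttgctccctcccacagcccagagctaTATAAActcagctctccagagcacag
Tnc, GRCm38.p6, chr4:64047016-64047115, minus strand: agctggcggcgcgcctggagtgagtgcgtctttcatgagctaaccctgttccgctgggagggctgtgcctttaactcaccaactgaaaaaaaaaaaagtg

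**Figure D5:**
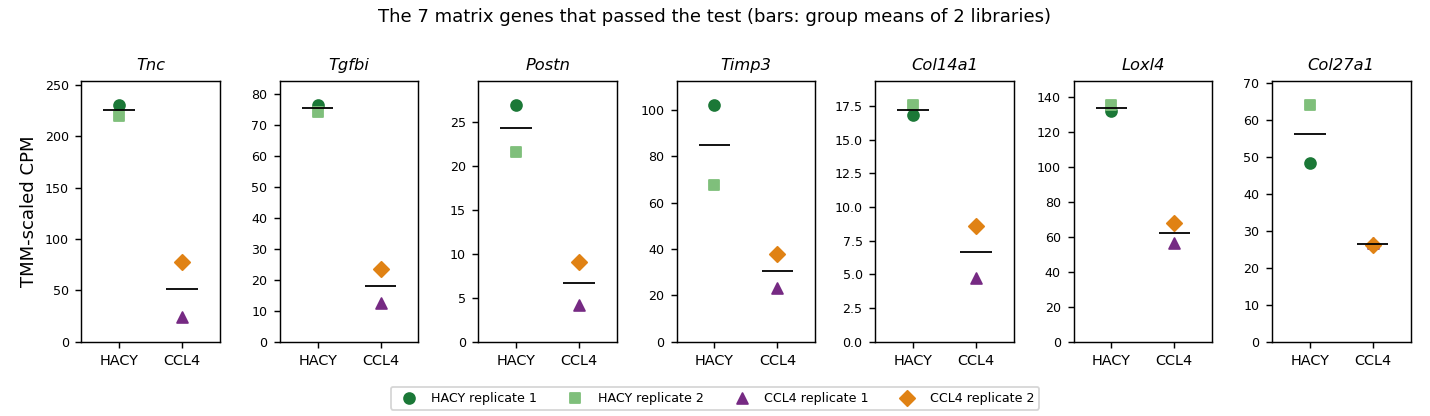
TMM-scaled CPM (vertical axis, a separate scale from 0 for each gene) of the 7 matrix genes that passed the test, with 1 symbol per library and a bar at each group mean of 2 libraries. For each gene both HACY symbols lie above both CCL4 symbols, and the CCL4 symbols coincide for Col27a1 and lie apart for Tnc (24.0 and 77.7).

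Fn1, whose product is the scaffold on which collagen assembles, had 3260 and 5071 CPM in HACY and 2220 and 4007 CPM in CCL4. CCL4 replicate 2 lay between the HACY libraries, and the log2 fold change of 0.42 (SE 0.30, adjusted p = 0.400) did not pass with or without any library. Thbs1 encodes thrombospondin-1, an activator of latent TGF-beta. Its level was 729 and 427 CPM in HACY and 121 and 347 CPM in CCL4. The groups did not overlap, but replicates differed widely in both, and the log2 fold change of 1.30 (SE 0.46) had an adjusted p of 0.114. Without CCL4 replicate 2 it was 2.25 (adjusted p = 0.00794), against 0.74 without CCL4 replicate 1 (adjusted p = 0.172). Sparc, a collagen-binding protein of remodelling tissue, had 620 and 419 CPM in HACY and 198 and 429 CPM in CCL4 (log2 fold change 0.73, SE 0.35, adjusted p = 0.209). It was called without CCL4 replicate 2 as well (1.39, adjusted p = 0.0128) and was 0.28 without CCL4 replicate 1 (adjusted p = 0.469). Thbs2 lay between 3.59 and 6.39 CPM.

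On the side of matrix removal, 1 of 3 TIMP inhibitors rose, and neither Mmp2 nor Mmp14 passed. Timp3, a TIMP that stays bound to the matrix (chromosome 10, 86300372 to 86349506), had 102 and 67.8 CPM in HACY and 23.2 and 37.8 CPM in CCL4. Both HACY libraries were above both CCL4 libraries. Timp3 rose 2.79-fold (log2 fold change 1.48, SE 0.28, adjusted p = 0.0202), by 1.17 and 1.88 against each CCL4 library alone. The call was lost with a replicate block (adjusted p = 0.0595) and on FPKM (0.0522 and 0.0525). Timp1, an inhibitor commonly raised in fibrosis, had 59.5 and 69.2 CPM in HACY and 30.5 and 71.9 CPM in CCL4. CCL4 replicate 2 was the highest library, and the log2 fold change was 0.33 (SE 0.35, adjusted p = 0.579). It was -0.16 without CCL4 replicate 1 and 1.07 without CCL4 replicate 2 (adjusted p = 0.00855). Timp2 lay between 21.7 and 47.4 CPM.

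Mmp14, the membrane-bound protease that activates pro-MMP2, had 617 and 601 CPM in HACY and 454 and 525 CPM in CCL4. Its 4 libraries were close, with HACY above CCL4 (log2 fold change 0.31, SE 0.12, adjusted p = 0.141). Mmp2, a gelatinase, had 8.36 and 10.4 CPM in HACY and 5.92 and 12.6 CPM in CCL4. The CCL4 libraries enclosed those of HACY. Its log2 fold change was 0.019 (SE 0.37, adjusted p = 0.980), and the sign turned by upper-quartile scaling, by library size alone, with HACY replicate 2 left out and with CCL4 replicate 1 left out (-0.42). The FPKM ratio of Timp1 to Mmp14 was 0.399 and 0.50 in HACY, 0.279 in CCL4 replicate 1 and 0.601 in CCL4 replicate 2, so the CCL4 libraries again held the extremes.

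Exons of Tnc, Timp3, Fn1, Thbs1, Fbn1, Lox, Loxl2, Loxl3, Col5a1, Col9a3, Col15a1 and Col22a1 overlap those of a gene on the opposite strand. Those of Col4a1 and Col4a2 overlap each other, and those of Col4a2 also overlap a further gene on the opposite strand. Without the strand setting of the counting, reads of such partners cannot be told apart. Exons of Col3a1, Col20a1, Col7a1 and Loxl2 also overlap those of a gene on the same strand, which no strand setting would separate.

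Genes outside the group but of the same pathway are set beside the share of all genes called, which was 8.19% higher and 3.54% lower with all libraries and 13.4% and 8.81% without CCL4 replicate 2. Of 22 tested genes of collagen synthesis and processing, 3 rose and 0 fell, with a median log2 fold change of 0.21. P4ha1 and P4hb, the subunits of the prolyl 4-hydroxylase that stabilises the triple helix, had log2 fold changes of 0.63 (SE 0.13, adjusted p = 0.0258) and 0.69 (SE 0.15, adjusted p = 0.0321). Pcolce2, an enhancer of procollagen trimming, stood at 0.91 (SE 0.22, adjusted p = 0.0418). None of the 3 passed without HACY replicate 1 (adjusted p from 0.0620 to 0.232) or without HACY replicate 2 (0.112 to 0.129), and P4hb did not pass without CCL4 replicate 1 (0.0707). Without CCL4 replicate 2, 8 of these genes were called, all higher.

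Of 14 tested receptors for collagen and other matrix, 4 rose and 0 fell (8.19% and 3.54% of all genes), with a median of 0.37. Lair1, an inhibitory collagen receptor of leukocytes, had 27.6 and 20.2 CPM in HACY and 4.10 and 4.73 CPM in CCL4. It rose by 2.44 on the log2 scale (SE 0.25, adjusted p = 0.00250) and passed with any single library left out. Itga8, an integrin chain of mesenchymal cells that binds fibronectin and tenascin-C, had 11.1 and 11.1 CPM in HACY and 1.11 and 3.40 CPM in CCL4 (log2 fold change 2.29, SE 0.47, adjusted p = 0.0255). It did not pass without HACY replicate 1 (0.0548). Itgb1, the common beta chain of collagen-binding integrins, and Cd44, a hyaluronan receptor, rose by 0.68 and 0.74 (adjusted p = 0.0216 and 0.0189). Neither passed without CCL4 replicate 1 (0.0663 and 0.0537) or without HACY replicate 2 (0.138 and 0.117), while 8 receptors were called without CCL4 replicate 2, 7 higher and 1 lower.

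Among 22 other matrix proteases and their activators 5 rose and 2 fell (8.19% and 3.54% of all genes). Mmp12 and Mmp13, the macrophage elastase and the rodent interstitial collagenase, rose by 1.11 (SE 0.13, adjusted p = 0.00347) and 1.40 (SE 0.15, adjusted p = 0.00260). Mmp13 had 81.6 and 84.3 CPM in HACY and 34.0 and 28.9 CPM in CCL4, so that its CCL4 replicate 1 was the higher of the pair. Both passed with any single library left out. Plau, Mmp19 and Adam10 rose by 0.97, 0.78 and 0.55 (adjusted p = 0.0183, 0.0467 and 0.0337), and each lost its call without HACY replicate 1 (0.142, 0.289 and 0.168). Mmp19 and Adam10 also failed the test with HACY replicate 2 left out (0.161 and 0.230) or CCL4 replicate 1 left out (0.0786 and 0.0553). Mmp9, a gelatinase stored by neutrophils, fell by 2.62 on the log2 scale (SE 0.65, adjusted p = 0.0448). Its levels were 8.57 and 9.02 CPM in HACY, 18.5 CPM in CCL4 replicate 1 and 89.5 CPM in CCL4 replicate 2. The call was lost without either HACY library (0.698 and 0.660). Mmp11 fell by 1.57 (SE 0.41, adjusted p = 0.0495), a call that no leave-one-out fit kept (0.0513 to 0.290).

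Markers of endothelium and of several mesenchymal and blood cells were, like the matrix genes, mostly higher in CCL4 replicate 2 than in replicate 1, while between the groups their lists differed in direction. Calls in each list stand beside 8.19% of all genes higher and 3.54% lower. All 12 endothelial markers were higher in CCL4 replicate 2 than in replicate 1, with a median log2 ratio of 0.75, and their summed level was 1348 to 1705 CPM in HACY, 630 CPM in CCL4 replicate 1 and 1050 CPM in CCL4 replicate 2. Between the groups 4 of them rose and 1 fell, with a median of 0.97. All 5 tested smooth muscle and myofibroblast markers were also higher in CCL4 replicate 2 (median 0.98), with sums of 54.8 to 74.7 CPM in HACY and 19.4 and 39.4 CPM in CCL4, and 1 of the 5 rose in HACY at a median of 1.27. Of 10 stellate cell markers 9 were higher in CCL4 replicate 2 (median 0.64), 1 rose in HACY and 0 fell at a median of 0.092, and the sums were 319 to 354 CPM in HACY and 217 and 310 CPM in CCL4. Lrat, a defining stellate cell gene, had under 10 counts in every library and 0 in CCL4 replicate 1, where 0 allows up to 3 counts or 0.152 CPM. Of 10 markers of portal fibroblasts and mesothelium 7 were higher in CCL4 replicate 2 (median 0.73), 1 rose and 2 fell in HACY at a median of -0.65, with 9 of 10 negative, and their sums were 83.1 to 83.8 CPM in HACY and 114 to 150 CPM in CCL4. All 10 tested neutrophil markers were higher in CCL4 replicate 2, by a median log2 ratio of 3.22, and between the groups 1 rose (Lcn2) and 1 fell (Cxcr2) at a median of -0.46. Lcn2 alone stood at 787 and 1347 CPM in HACY and 435 and 570 CPM in CCL4, and hepatocytes can also make it. The other 9 summed to 40.0 and 44.0 CPM in HACY, 32.2 CPM in CCL4 replicate 1 and 246 CPM in CCL4 replicate 2.

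By their medians, macrophage and hepatocyte markers differed between the groups by more than within CCL4. So did the endothelial and smooth muscle lists above. Of 13 macrophage markers 12 rose in HACY (median 1.62), with sums of 2951 to 4144 CPM in HACY and 1168 to 1583 CPM in CCL4. The median log2 ratio within CCL4 was 0.15, with 8 of the 13 higher in replicate 2. Single macrophage markers differed within CCL4 in both directions, from -1.41 (Timd4) to 1.38 (Lyz2). For Lyz2 this was more than the log2 fold change between the groups (0.91). Of 11 hepatocyte markers 9 rose (median 1.78), with a median ratio of 0.016 within CCL4. Their sums were 28840 to 36110 CPM in HACY and 7123 to 8569 CPM in CCL4. Alb made up most of these sums, at 24000 and 30360 CPM in HACY and 6971 and 5497 CPM in CCL4. Of the 11 log2 fold changes 10 were positive, and that of Hnf4a was -0.041. Of 8 B cell markers 1 rose and 0 fell, and of 8 tested markers of bile duct cells and progenitors 1 rose and 1 fell. Their medians were 0.24 and 0.55 between the groups, beside 0.37 and 0.45 within CCL4. Of 2 tested markers of red cell precursors 0 rose and 0 fell, with a median of 1.35, beside 0.72 within CCL4. No marker list had a gene at 0 in all libraries. The part of any of these cell types in the matrix results was not tested.

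Promoter windows of RefSeq, from 250 bases before to 50 after a start site, were found for 37 of the 52 genes, 41 windows in all. A GC box (GGGCGG) was present in 28 of them (68.3%), beside 35.7% of all 32851 mouse windows, and a SMAD box (CAGACA) in 11 (26.8%), beside 21.0%. The TATA box (TATAAA) was found in 7 (17.1%, against 13.6% of all), the CCAAT box (CCAAT) in 15 (36.6%, against 37.4%), the TEAD site (CATTCC) in 6 (14.6%, against 14.7%) and the AP-1 site (TGANTCA) in 1 (2.44%, against 7.81%). Both strands were searched, and a CCAAT box and a GC box can share bases. Some genes have more than 1 window, and those of Col4a1 and Col4a2 share 78 bases, so the windows are not independent. Each match describes the letters in the window and is not a measured binding site.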

How the data were processed

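Liver cells sorted on magnetic columns for CD24 were made into 4 stranded paired-end mRNA libraries, per the labels' protocols. The sample titles gave the groups and replicate numbers. Each deposited table gives a raw read count and an FPKM (a value scaled to transcript length and library size) per gene, both deposited by the authors and named so per the file headers. Trimmomatic, HISAT2, Cufflinks, HTSeq, DESeq and the build mm10 are named per the submitters' processing notes, with neither versions nor roles. No annotation or strand setting is named in the sources used here.

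The comparison of counts used the robust quasi-likelihood test of edgeR 4.0.16 (R 4.3.3), two-sided, with a term for treatment alone and TMM scaling. The filter, filterByExpr with a minimum count of 10 and a minimum total of 15, left 13428 genes, over which p-values were adjusted by the Benjamini-Hochberg method and called below 0.05. Standard errors are approximate, the log2 fold change divided by the root of its F statistic. The biological coefficient of variation was 16.5%. Log2 ratios within a replicate pair used a prior count of 2. Counting intervals are exact binomial (Clopper-Pearson) 95% intervals, which cover counting error only, since reads without molecular identifiers are not independent molecules. Replicates were no copies of each other, as their counts gave a chi-square of 19.0 (HACY) and 34.0 (CCL4) per degree of freedom. Locations are from the GENCODE annotation of GRCm38, the assembly of mm10, and promoter sequences are from RefSeq (GRCm38.p6).

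Values in every library are given for genes that passed the test, for the 2 genes of each role with the highest mean FPKM, and for the 10 with the largest difference between the CCL4 libraries among those of at least 5 CPM. The other genes are given by ranges and counts, apart from Col11a2, which was chosen after its values were seen. The genes, the role and marker lists and the tests were chosen with earlier results of these data known. Alternatives were other scalings (RLE, upper-quartile, library size alone), DESeq2 1.42.0, limma-voom (limma 3.58.1), no filter, a stricter filter (50 counts in 2 libraries), limma on log2(FPKM + 1) and log2(FPKM + 0.1) for genes with an FPKM of at least 0.5 in 2 libraries, a replicate block, the group without Col4a1 to Col4a6, and each library left out. The edgeR script was tested on simulated data. A planned description of the proteins was not made, as no protein sequences were used here.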

Additional observations from a re-analysis of the deposited data

How the results depend on the processing

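With any single library left out, the number of all genes called ranged from 629 to 3047, that of matrix genes higher in HACY from 4 to 31, that of matrix genes lower from 0 to 2, and their median log2 fold change from 0.16 to 1.07. The highest of each came without CCL4 replicate 2. Calls for all genes were 629 without HACY replicate 1 and 780 without HACY replicate 2. On FPKM, 4 matrix genes were higher with a pseudocount of 1 and 3 with 0.1, over 39 genes tested. The count of lower genes was 1 instead of 0 by upper-quartile scaling, library size alone, DESeq2, no filter and the stricter filter, each time Col11a2. RLE scaling and limma-voom changed no such count, nor did leaving out Col4a1 to Col4a6. Of the genes of collagen synthesis, 3 of which were called, 1 was called by upper-quartile scaling and by library size alone, 5 by DESeq2 and 0 on either FPKM scale, and 0 to 8 with a library left out. Of the other proteases, 4 instead of 7 were called on FPKM and with a replicate block, and 2 to 9 with a library left out. Of the receptors, 2 instead of 4 were called with FPKM + 0.1, and 2 to 8 with a library left out. The medians within the CCL4 and HACY pairs and the HACY over CCL4 ratio of matrix shares (1.32 on FPKM and 1.46 without Fn1, Mmp14 and Col4a1) kept their direction under every alternative run for them.

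The split of all genes was 925 higher and 614 lower by upper-quartile scaling, 856 and 1355 by library size alone, 681 and 656 with FPKM + 1, and 680 and 666 with FPKM + 0.1. Signs turned only in genes that had not passed, and the cause was not tested. By library size alone Bgn was -0.019, Col1a2 -0.031, Dcn -0.12 and Mmp2 -0.15, and by upper-quartile scaling Dcn was -0.0088 and Mmp2 -0.046. Dcn was -0.13 with either FPKM pseudocount. Col3a1 was 0.27 with limma-voom, 0.14 with FPKM + 1 and 0.17 with FPKM + 0.1. Ranges over the fits that left out a library were -0.23 to 0.67 for Bgn, -0.16 to 1.37 for Col1a1, -0.42 to 1.04 for Col1a2, -0.84 to 1.40 for Col3a1, -0.11 to 1.34 for Col5a1, -0.21 to 1.07 for Col6a2, -0.16 to 1.07 for Timp1, -0.089 to 0.18 for Dcn and -0.42 to 0.66 for Mmp2.

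The groups share replicate numbers, but nothing in the labels says that a number pairs libraries, and same-numbered deviations correlated at -0.0989 across 13428 genes. With the replicate number as a block, 1224 genes were called, 893 higher and 331 lower. The block kept 7 matrix genes higher and 0 lower at a median of 0.55, with Timp3 lost and Col18a1 gained, and turned Col3a1 to 0.26.

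Depth left little counting error in abundant genes, with a 95% interval of the CCL4 ratio from 1.78 to 1.83 for Fn1, but much in scarce ones, with 1.36 to 5.16 for Col4a6.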
